A study of Mus musculus with 24 samples.

Results

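The C/EBP family was followed through the knockdown of the long noncoding RNA Ctcflos in differentiating brite adipocytes, white fat cells that are driven to take on features of brown fat. The members were chosen by gene symbol (Cebpa, Cebpb, Cebpd, Cebpg and Cebpz), with 1 row of the deposited table kept per symbol: the RefSeq transcript of the highest mean value. This gave 5 genes of 52089 symbols, which the table holds in 27 of its 168326 rows. Primary preadipocytes from the stromal-vascular fraction of inguinal white adipose tissue of 129SvEv mice were kept in induction medium for 2 days and then, for 1 day, in differentiation medium with rosiglitazone, an activator of PPARγ. In all 4 groups the cells received 50 nM of an LNA gapmer, an antisense oligonucleotide that leads to cleavage of its target RNA: the KD groups one against Ctcflos, the NC groups a nontargeting one. Cells were harvested 24 h or 72 h after transfection, with 6 libraries in each group (KD 24 h, KD 72 h, NC 24 h, NC 72 h). No group was left without a transfection, and the labels do not say which libraries share animals or cultures, so that p-values measure only the spread between these samples.

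C/EBP proteins are basic leucine zipper (bZIP) transcription factors that bind DNA as dimers. In adipogenesis the products of Cebpb and Cebpd appear early after hormonal induction and help to switch on Cebpa and Pparg, whose products then hold each other and the fat cell genes active. Cebpg encodes a short member without a classical activation domain that pairs with other bZIP proteins such as ATF4. Cebpz carries the family symbol but encodes a CCAAT-binding protein without the leucine zipper, which belongs to a group of nucleolar proteins of ribosome assembly.

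All 5 genes were well above the detection floor. The libraries held 1391822 to 5423790 recovered mapped reads (median 3945836), and the row of a member took between 29 reads (Cebpz) and 978 reads (Cebpb) in a single library. A count of 3 reads corresponds to at most 1.43 RPKM for Cebpb and at most 0.458 RPKM for Cebpg in the shallowest library, KD 24 h replicate 6. NC 72 h replicates 2 and 3 differed by less than the sampling noise and were averaged and counted as 1 sample, which leaves n = 5 in NC 72 h and 23 samples in all. In NC 72 h replicate 6 only 77.0% of the low values were whole reads, against at least 95.2% elsewhere. By their deviations from the mean of their group the 24 libraries formed 2 clusters, the larger with 16 and the smaller with 8, with 2 libraries of the smaller cluster in each group (KD 24 h replicates 3 and 4, NC 24 h replicates 5 and 6, KD 72 h replicates 5 and 6, NC 72 h replicates 4 and 5). What the clusters stand for is not given in the labels, and results are given within each of them below.

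Ctcflos, listed as 1300015D01Rik, was lower in KD at 72 h in each of the 3 entries described here, whereas at 24 h 1 of the 3 passed the test. A further entry, at 0 in all KD samples and at a mean of 0.288 RPKM in NC 72 h, passed at neither time (exact permutation test, adjusted p = 0.99 at 72 h). The remaining entries tested nearly repeated the values of those described. The Ctcflos entry AK079954 averaged 0.218 RPKM in KD 24 h against 1.63 RPKM in NC 24 h (13.4% of control, exact permutation test, two-sided, adjusted p = 0.019) and 0.344 against 2.61 RPKM at 72 h (13.2%, exact permutation test, adjusted p = 0.017). The RefSeq entry of Ctcflos, NR_040321, stood at 25.5% of control at 24 h (exact permutation test, adjusted p = 0.068) and at 18.8% at 72 h (exact permutation test, adjusted p = 0.017). The study designed gapmers against the transcripts of both AK079954 and AK041254. The paper states that its global expression work focused on the transcript of AK041254. The sample titles say only Ctcflos KD, so that the gapmer used for these libraries cannot be told from them. The entry AK041254 averaged 0.255 against 0.43 RPKM at 24 h (59.4%, exact permutation test, adjusted p = 0.44) and 0.124 against 1.48 RPKM at 72 h (8.36%, exact permutation test, adjusted p = 0.026). For this entry a lower level was therefore not shown at 24 h. The adipocyte markers were strongly expressed: the summed scaled RPKM of 6 genes (Fabp4 makes up most of it) ran at 24 h from 49300 to 51700 in NC and from 36400 to 48900 in KD, and at 72 h from 35100 to 46900 in NC and from 25600 to 34800 in KD. After scaling the sum was therefore lower in every KD sample than in every NC sample of its time. The margins were narrow (48900 against 49300 at 24 h, 34800 against 35100 at 72 h), and sums on the deposited scale are not given here. The part of this sum in the differences of the C/EBP genes was not tested. In these bulk samples fewer adipocytes and less RNA per adipocyte cannot be told apart. The sums of 4 endothelial markers stayed between 0.19 and 1.58, those of 5 of 6 macrophage markers between 2.6 and 29.5, those of 4 smooth muscle or pericyte markers between 136 and 1110, and those of 6 preadipocyte or fibroblast markers between 390 and 1030. In these 4 lists no gene was at 0 throughout a group. The part of these cells in the results was not tested. Among their genes Lyz2, a macrophage lysozyme, fell at 72 h (log2 difference −3.68 ± 0.59, SE, limma adjusted p = 6.5e-04), whereas Csf1r, the receptor of the macrophage growth factor, rose (1.23 ± 0.25, adjusted p = 0.0031). Of 5 preadipocyte or fibroblast markers tested at 72 h, 2 were called higher and 0 lower: Cd34 (2.02 ± 0.36, adjusted p = 0.0015) and Pdgfrb (0.59 ± 0.14, adjusted p = 0.0077). Pdgfra of the same list averaged less in KD 72 h (8.61 scaled RPKM) than in NC 72 h (10.9). The sums of this list overlapped at 72 h, with 696 to 879 in KD and 390 to 1020 in NC.

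The relation of the members to each other is seen in the part of the coding sequence that encodes the DNA-contacting basic region. A 48-base stretch at this place was found in the transcripts of 4 members (GENCODE M21, build GRCm38). It is shown because these 4 members share it. The motif used to find it was absent from Cebpz, but also from Ddit3, the more distant bZIP relative CHOP. Its absence therefore does not tell whether a gene encodes a bZIP protein. Capitals mark the 26 bases that are the same in all 4 genes.
Cebpa: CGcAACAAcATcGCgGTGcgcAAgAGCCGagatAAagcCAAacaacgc
Cebpb: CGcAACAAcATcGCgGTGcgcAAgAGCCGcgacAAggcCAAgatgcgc
Cebpd: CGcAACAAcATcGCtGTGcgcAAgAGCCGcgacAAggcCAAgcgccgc
Cebpg: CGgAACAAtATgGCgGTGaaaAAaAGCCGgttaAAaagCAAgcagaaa
The stretches lie at chr7:35120292-35120339 (plus strand, Cebpa), chr2:167689712-167689759 (plus, Cebpb), chr16:15887922-15887969 (plus, Cebpd) and chr7:35050579-35050626 (minus, Cebpg), all in coding exons. Cebpb and Cebpd shared 91.7% of the bases, and Cebpa shared 85.4% with either of them. Cebpg shared 62.5% with Cebpa, 60.4% with Cebpb and 58.3% with Cebpd. The coding sequences held 359 codons for Cebpa, 296 for Cebpb, 268 for Cebpd, 150 for Cebpg and 1052 for Cebpz.

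In the annotation Cebpa (chr7:35119293-35121928, plus strand, NM_007678), Cebpb (chr2:167688915-167690418, plus, NM_009883) and Cebpd (chr16:15887286-15891031, plus, NM_007679) are single-exon genes, judged by the matching transcripts. The Cebpg transcript (chr7:35046422-35056573, minus, NM_009884) has 2 exons, and that of Cebpz (chr17:78919006-78937066, minus, NM_001024806) has 16. Promoter windows of RefSeq (build GRCm38.p6) matched 3 of the 5 symbols. They belong to Cebpa, Cebpb and Cebpg, the genes that were lower in KD 72 h, and are printed 5′ to 3′ up to the transcription start, with matches on either strand in capitals for the CCAAT box, for the C/EBP palindrome TTGCGCAA, for the CREB core TGACG and for the TATA box, taken as TATAAA. The Cebpg window lacks 7 bases next to the start that GENCODE counts to the gene, and so holds 243 bases in place of 250.
Cebpa: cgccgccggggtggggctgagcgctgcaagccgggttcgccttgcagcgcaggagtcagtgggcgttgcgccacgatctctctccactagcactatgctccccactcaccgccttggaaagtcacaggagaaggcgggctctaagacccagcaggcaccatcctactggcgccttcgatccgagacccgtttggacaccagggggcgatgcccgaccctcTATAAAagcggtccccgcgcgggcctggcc
Cebpb: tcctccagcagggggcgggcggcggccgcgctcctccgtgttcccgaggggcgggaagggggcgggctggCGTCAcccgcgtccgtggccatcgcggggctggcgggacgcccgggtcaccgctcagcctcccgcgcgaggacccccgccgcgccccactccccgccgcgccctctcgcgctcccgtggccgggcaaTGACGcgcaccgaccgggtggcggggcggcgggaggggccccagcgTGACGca
Cebpg: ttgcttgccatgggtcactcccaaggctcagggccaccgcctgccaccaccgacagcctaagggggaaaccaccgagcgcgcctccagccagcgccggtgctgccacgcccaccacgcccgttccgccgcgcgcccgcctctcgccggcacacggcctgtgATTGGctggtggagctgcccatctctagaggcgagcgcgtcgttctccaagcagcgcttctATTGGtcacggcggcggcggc
These windows lie at chr7:35119043-35119292 (Cebpa), chr2:167688665-167688914 (Cebpb) and chr7:35056574-35056816 (Cebpg). The Cebpa window held 1 TATAAA, whose first base lies 30 bases before the start, a motif found in 12.4% of 32851 promoter windows of 250 bases. That of Cebpb held TGACG, the core of the site bound by CREB and ATF proteins, 3 times (17.8% of all windows hold it), and GGGCGG, the GC box bound by Sp1 (not in capitals), 5 times (32.7% of all windows), where the first 2 GGGCGG matches overlap. The Cebpg window held CCAAT on the minus strand at 2 places (33.8% of all windows). The palindrome TTGCGCAA, a C/EBP consensus, was found in 0 of the 3 windows and in 0.164% of all windows. These matches describe letters and not binding.

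Cebpb was the most abundant member per length in every sample. On the deposited scale its RPKM was 4.26 to 13.4 times that of Cebpd within the same sample (median 7.18, 23 of 23 samples). Cebpa and Cebpd came next and changed places: Cebpa was above Cebpd in 4 of 6 NC 24 h samples, in 3 of 6 KD 24 h samples, in 1 of 5 NC 72 h samples and in 0 of 6 KD 72 h samples. Each was above Cebpg in 22 of 23 samples, the exception being KD 24 h replicate 6 for Cebpa and KD 24 h replicate 3 for Cebpd (chosen after their values were seen). Cebpg and Cebpz did not differ beyond their spread, with Cebpg above Cebpz in 10 of 23 samples. Cebpz was not below Cebpa and Cebpd throughout: Cebpa was above it in 17 and Cebpd in 20 of 23 samples, with 3 of 6 for Cebpa in KD 72 h and 3 of 6 for Cebpd in KD 24 h. As reads come from 3′ ends, dividing by the whole length lowers long transcripts, and the lengths ran from 1504 bases for Cebpb to 4702 bases for Cebpg. Cebpe, the myeloid member of the family, was listed at 0 in 24 of 24 libraries; so was Fbl, a nucleolar gene used by all cells, in 19 of 24, so that a 0 here says only how the gene is listed.

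**Figure D1:**
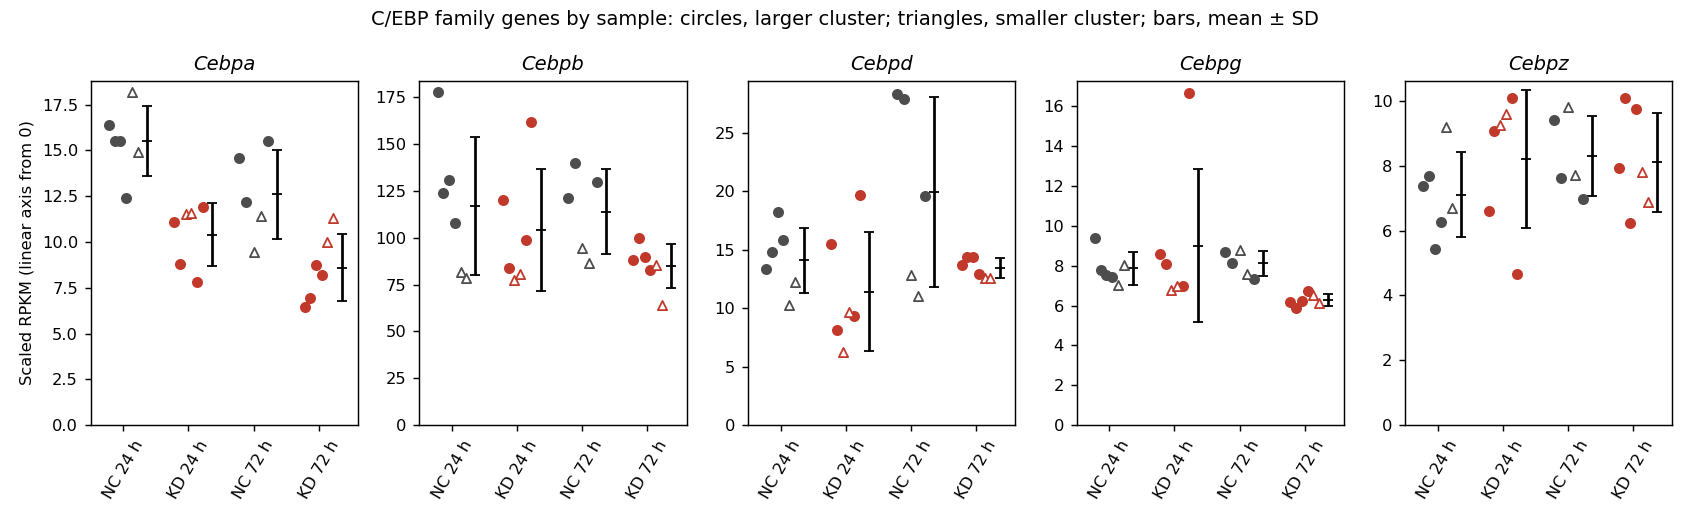
Each point is the scaled RPKM (RPKM divided by a library factor, linear axis) of one sample for the 5 genes, by group; circles are libraries of the larger cluster, triangles those of the smaller cluster, and bars give mean ± SD. The 6 KD 24 h samples of Cebpa lie between 7.8 and 11.9, all below the NC 24 h samples, and the 6 KD 72 h samples of Cebpg between 5.86 and 6.73, all below the NC 72 h samples. On the deposited scale, which is not plotted, these groups overlap for both genes. The share of all entries without overlap after scaling is not reported.

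The comparison of KD 24 h with NC 24 h asks how the family stood soon after transfection of the gapmer against Ctcflos. Cebpa, the factor that sustains the fat cell programme, was lower, at 67.2% of the control level in the fit. In the other members no difference passed the test. The knockdown changed 1 of 5 members, against 22.7% of all 51975 entries tested (11.8% called lower and 10.9% called higher), a share near the background. Tests are limma fits on log2(scaled RPKM + 0.1) across all entries, with p-values adjusted by Benjamini-Hochberg over all of them and a threshold of 0.05.

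Cebpa ranged from 7.8 to 11.9 scaled RPKM in KD 24 h (median 11.3) and from 12.4 to 18.2 in NC 24 h (median 15.5). After scaling the groups did not overlap, and the lowest sample of each belonged to the larger cluster. How many of all entries show no overlap at 24 h is not reported here. On the deposited scale they overlapped, with 7.59 to 13.1 RPKM in KD 24 h and 11.8 to 17.1 RPKM in NC 24 h. The scaled means were 10.4 ± 1.72 (SD, n = 6) and 15.5 ± 1.91 (n = 6), a log2 difference of −0.57 ± 0.15 (SE, adjusted p = 0.015).

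Of the early factors, Cebpb ranged from 77.4 to 162 scaled RPKM in KD 24 h (median 91.4) and from 78.5 to 178 in NC 24 h (median 116). The groups overlapped almost completely, and the difference was −0.17 ± 0.22 on the log2 scale (95% interval −0.63 to 0.30, adjusted p = 0.61). Cebpd ranged from 6.21 to 19.7 in KD 24 h (median 9.46) and from 10.3 to 18.2 in NC 24 h (median 14.1). In 4 of 6 KD 24 h samples Cebpd lay below every control, while replicates 1 and 6, at 15.5 and 19.7, did not. The log2 difference was −0.39 ± 0.25 (95% interval −0.93 to 0.15, adjusted p = 0.27).

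Cebpg, the partner of other bZIP proteins, ranged from 6.76 to 16.7 in KD 24 h (median 7.53) and from 7.04 to 9.41 in NC 24 h (median 7.66), a log2 difference of 0.12 ± 0.21 (adjusted p = 0.72). The value of 16.7 belongs to KD 24 h replicate 6, the shallowest library, and without it the difference was −0.07 (adjusted p = 0.74). The same library was also the highest of its group for Cebpa, Cebpb and Cebpd and the lowest for Cebpz. Cebpz ranged from 4.65 to 10.1 in KD 24 h and from 5.42 to 9.2 in NC 24 h, a log2 difference of 0.18 ± 0.21 (adjusted p = 0.56).

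At 72 h the comparison asks where the family stood once the control cells had gone further in differentiation. Cebpa, Cebpb and Cebpg were lower in KD than in NC, to 67.5%, 74.3% and 77.1% of the control level in the fit, and Cebpd stood at 71.8% without passing the test. Cebpz stood at 96.2%. The knockdown changed 3 of 5 members, against 22.5% of 54105 entries (12.1% called lower and 10.4% called higher). These calls rest on the scaling between libraries. On the deposited scale the median of all entries was shifted by 0.25 on the log2 scale, the calls split into 13143 higher and 3104 lower in place of 5614 and 6548, and 0 of 5 members were called (the unscaled differences were −0.32 for Cebpa, −0.18 for Cebpb, −0.23 for Cebpd, −0.13 for Cebpg and 0.19 for Cebpz). With 1 library left out, between 0 and 3 members were called.

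Cebpb ranged from 64.2 to 100 scaled RPKM in KD 72 h (median 86.7), whereas the NC 72 h samples gave 86.4, 94.6, 121, 130 and 140. The 2 lowest controls belong to the smaller cluster and overlapped with the KD samples. The means were 85.0 ± 11.9 (n = 6) and 114 ± 22.9 (n = 5), a log2 difference of −0.43 ± 0.14 (adjusted p = 0.043). The call was lost in 8 of 11 omissions of a library: without NC 72 h replicate 1 (adjusted p = 0.089), 2 (0.11) or 6 (0.099), and without KD 72 h replicate 1 (0.062), 3 (0.058), 4 (0.071), 5 (0.054) or 6 (0.073).

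Cebpd had close KD values and widely spread control values. It ranged from 12.6 to 14.4 in KD 72 h (median 13.3), and the NC 72 h samples gave 11.0, 12.8, 19.6, 27.9 and 28.3. The 3 controls of the larger cluster lay above every KD sample and the 2 of the smaller cluster within or below their range. The group means of 13.4 ± 0.847 (n = 6) and 19.9 ± 8.12 (n = 5) gave a log2 difference of −0.48 ± 0.22 (95% interval −0.96 to 0.00, adjusted p = 0.14). Without NC 72 h replicate 5 it was −0.66 (adjusted p = 0.034).

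Cebpa ranged from 6.44 to 11.3 in KD 72 h (median 8.46), and the NC 72 h samples gave 9.47, 11.4, 12.2, 14.6 and 15.5. The highest KD samples and the lowest controls were those of the smaller cluster. The means of 8.60 ± 1.83 (n = 6) and 12.6 ± 2.42 (n = 5) differed by −0.57 ± 0.18 on the log2 scale (adjusted p = 0.032). The call was kept in 4 of 11 omissions of a library, with adjusted p between 0.018 and 0.08, and was lost without KD 72 h replicate 1 (0.075), 2 (0.072), 3 (0.054) or 4 (0.06) and without NC 72 h replicate 1 (0.077), 2 (0.053) or 6 (0.08).

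Cebpg had the least spread at 72 h. Its KD samples lay between 5.86 and 6.73 (median 6.22), and the NC samples at 7.36, 7.61, 8.16, 8.71 and 8.78. After scaling the groups thus did not overlap, and both clusters showed the same order. On the deposited scale they overlapped, with 6.37 to 7.58 RPKM in KD 72 h and 6.85 to 8.57 RPKM in NC 72 h. The share of all entries without overlap is not reported here. The scaled means were 6.29 ± 0.307 (n = 6) and 8.12 ± 0.634 (n = 5), a log2 difference of −0.38 ± 0.13 (adjusted p = 0.046). This value lies close to the threshold: the call was kept in 1 of 11 omissions, that of NC 72 h replicate 6 (adjusted p = 0.048, and up to 0.092 in the others), while the difference itself stayed between −0.41 and −0.35. Cebpz ranged from 6.23 to 10.1 in KD 72 h and from 6.98 to 9.8 in NC 72 h and differed by −0.06 ± 0.16 (95% interval −0.41 to 0.30, adjusted p = 0.85).

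**Figure D2:**
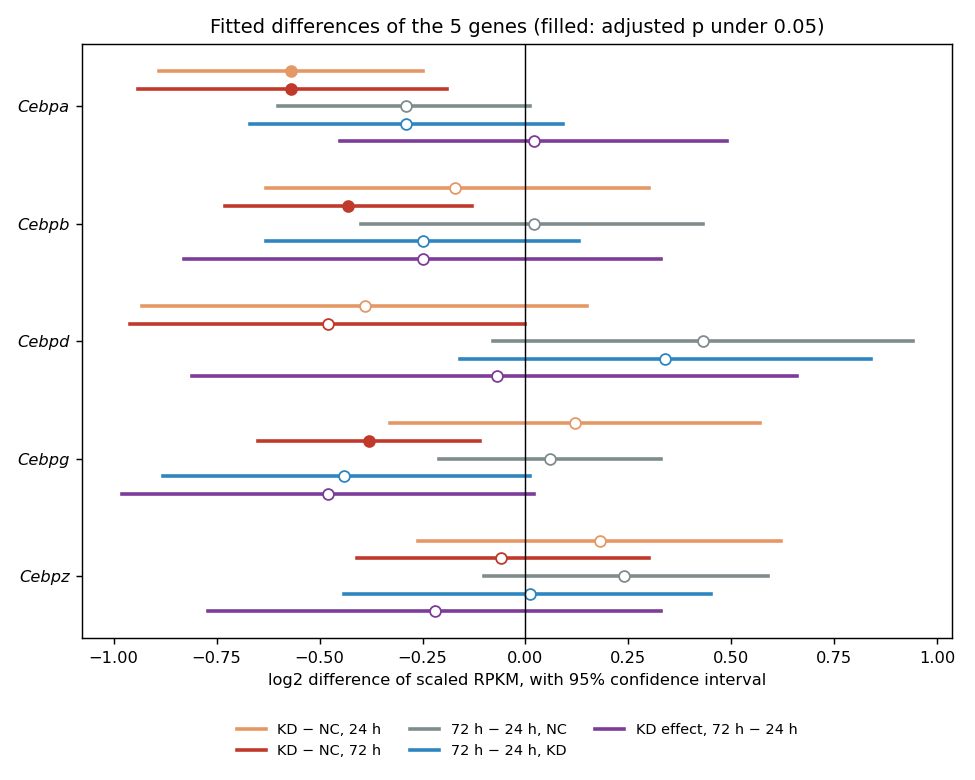
Points give fitted log2 differences of scaled RPKM for 5 genes in 5 comparisons, lines their 95% confidence intervals, and filled points an adjusted p under 0.05. The filled points are Cebpa at 24 h and 72 h (−0.57 in both) and Cebpb (−0.43) and Cebpg (−0.38) at 72 h.

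Within the clusters the 72 h differences of Cebpa and Cebpd did not hold in both. In the larger cluster Cebpa averaged 7.58 in KD 72 h and 14.1 in NC 72 h, with a log2 difference of −0.89 (limma adjusted p = 0.0038), whereas in the smaller cluster it averaged 10.7 and 10.4, a difference of 0.01 (adjusted p = 0.98). Cebpd behaved alike, with 13.8 against 25.3 in the larger cluster (−0.85, adjusted p = 0.0028) and 12.6 against 11.9 in the smaller one (0.06, adjusted p = 0.89). Cebpb was lower in both, by −0.54 (adjusted p = 0.0022) and −0.31 (adjusted p = 0.27), and so was Cebpg, by −0.37 (adjusted p = 0.15) and −0.38 (adjusted p = 0.38). At 24 h Cebpa was lower in both clusters, by −0.60 (larger) and −0.52 (smaller, adjusted p = 0.16). The smaller cluster holds 2 samples of each group, and the difference between clusters was not tested.

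**Figure D3:**
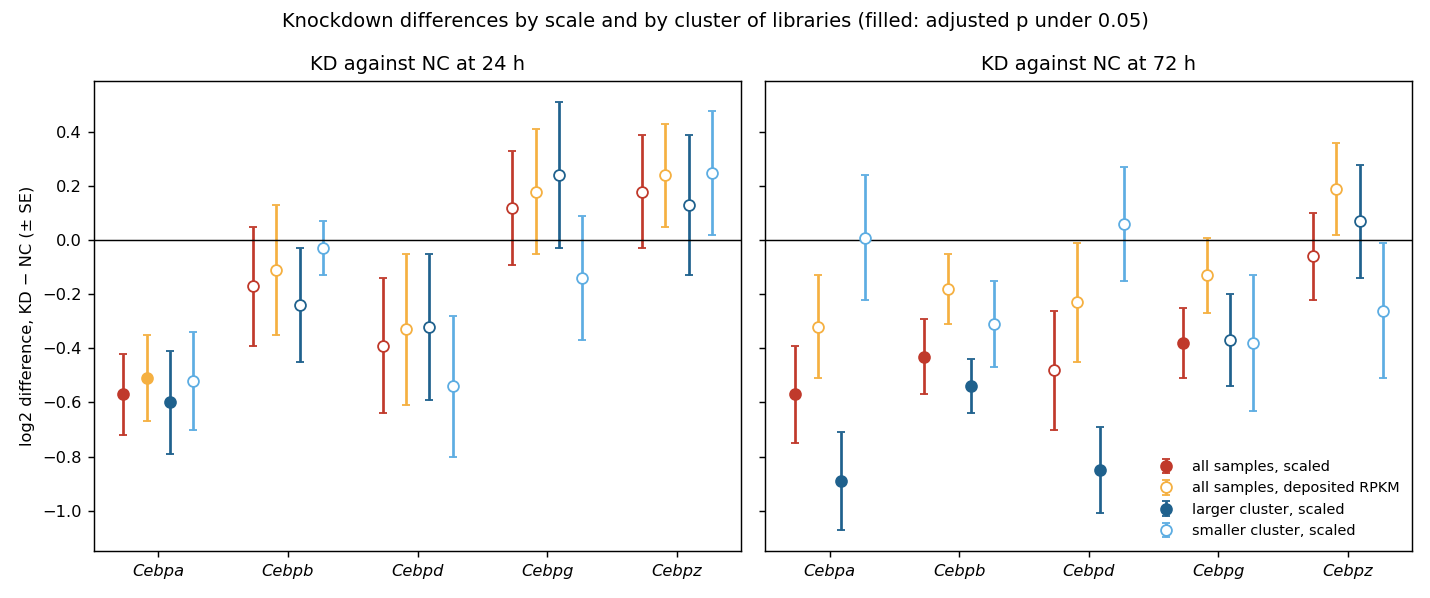
The log2 difference between KD and NC (± SE) is plotted for each gene at 24 h and 72 h, for all samples after scaling, all samples on the deposited scale, and the larger and the smaller cluster; filled points have an adjusted p under 0.05. At 72 h Cebpa lies at −0.89 in the larger and at 0.01 in the smaller cluster, and Cebpd at −0.85 and 0.06, while Cebpg lies at −0.37 and −0.38.

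Over time no member passed the test in either arm. From 24 h to 72 h the knockdown cells and the controls each changed 0 of 5 members, against 9.15% of 52656 entries in NC and 9.87% of 53053 entries in KD. At an unadjusted p under 0.05 the count was also 0 in both arms. In NC the log2 differences were −0.29 ± 0.14 for Cebpa (adjusted p = 0.24), 0.02 ± 0.19 for Cebpb (0.97), 0.43 ± 0.24 for Cebpd (0.31), 0.06 ± 0.13 for Cebpg (0.83) and 0.24 ± 0.16 for Cebpz (0.41). Within the larger cluster the Cebpd difference in NC was 0.69 (adjusted p = 0.023), and the count there was 1 of 5. In KD they were −0.29 ± 0.18 for Cebpa (adjusted p = 0.33), −0.25 ± 0.18 for Cebpb (0.41), 0.34 ± 0.24 for Cebpd (0.40), −0.44 ± 0.21 for Cebpg (0.21) and 0.01 ± 0.21 for Cebpz (0.99). After scaling all 6 KD 72 h samples of Cebpg lay below all 6 KD 24 h samples, without KD 24 h replicate 6 as well. The margin was narrow (6.73 against 6.76), and the share of all entries without overlap in this comparison is not reported here. As deposited the groups overlapped, with 6.37 to 7.58 RPKM in KD 72 h and 6.23 to 18.3 RPKM in KD 24 h. On the deposited scale the median of all entries in KD was shifted by 0.16, with 5234 entries called higher and 1241 lower in place of 2669 and 2566. The medians of Cebpa thus read 15.5 scaled RPKM in NC 24 h, 12.2 in NC 72 h, 11.3 in KD 24 h and 8.46 in KD 72 h.

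For none of the members was the effect of the knockdown at 72 h distinguishable from that at 24 h. The interaction called 0 of 5 members, against 0.213% of 59225 entries, with 0 members at an unadjusted p under 0.05. On the deposited scale the entries called were 744 higher and 30 lower in place of 82 and 44. The effect of Cebpa was the same at both times in the fit, with an interaction of 0.02 ± 0.23 (95% interval −0.45 to 0.49, adjusted p = 0.98). That of Cebpg was −0.48 ± 0.24 (95% interval −0.98 to 0.02, adjusted p = 0.44), those of Cebpb, Cebpd and Cebpz were −0.25 ± 0.28 (0.77), −0.07 ± 0.36 (0.96) and −0.22 ± 0.27 (0.79).

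The other rows of the members overlap with the rows used and share reads with them, so that they are no replicates. All 4 rows of Cebpa were lower and called at 24 h (−1.02 to −0.57), the lowest being the 291-base entry AK160443, and 3 of 4 were called lower at 72 h. Both rows of Cebpb were called lower at 72 h (−0.43 and −0.42), and all 6 of Cebpd were lower at both times with 0 called. All 8 rows of Cebpg were lower at 72 h (−0.72 to −0.27), with 3 of them called. The 7 rows of Cebpz disagreed in sign at 72 h (3 lower, 4 higher), and 1 was called: AK017537, of 1704 bases and a mean of 33.0 RPKM, at −0.38 (adjusted p = 0.022), chosen here after its value was seen.

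The handling of strand was not given in the sources used here, and each member overlaps a gene on the opposite strand, with which it could share reads. Cebpz overlaps 1301 bases of Cebpzos, listed as 1110001A16Rik, which averaged 34.6 RPKM and was lower in KD 72 h (−0.41 ± 0.14, adjusted p = 0.044). The called Cebpz row AK017537 was close to Cebpzos in level and difference (33.0 RPKM, −0.38 at 72 h), whereas the Cebpz row used averaged 7.92 RPKM. Whether AK017537 holds reads of Cebpzos was not tested. Cebpd overlaps 1808 bases of Spidr, a DNA repair gene, which averaged 4.10 RPKM and was lower in KD 24 h (−0.82 ± 0.22, adjusted p = 0.016). Cebpb overlaps 908 bases of Tmem189, at 3.88 RPKM, whose differences were −0.08 ± 0.36 (adjusted p = 0.90) and 0.30 ± 0.25 (0.41) at 24 h and 72 h. Cebpa and Cebpg overlap 313 and 353 bases of the antisense genes Gm45091 and Gm45095.

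Across the 23 samples Cebpb moved with Cebpd (r = 0.64 of log2 values) and with Cebpg (r = 0.65). Within the larger and the smaller cluster Cebpb and Cebpg gave 0.69 and 0.72, and Cebpb and Cebpd 0.54 and 0.11. Cebpa and Cebpb gave 0.38 over all samples, with 0.78 in the larger and −0.21 in the smaller cluster. Over all samples Cebpz ran against the others, from −0.34 with Cebpa to −0.48 with Cebpg, the latter reaching −0.10 without KD 24 h replicate 6. In the smaller cluster alone Cebpz gave 0.53 with Cebpb and 0.21 with Cebpg. These correlations describe samples that share groups and scaling and carry no test. Among 6283 genes with a mean of at least 5 scaled RPKM, the pattern most like Cebpa was that of Acsl1, which encodes a long-chain acyl-CoA synthetase of fat cells (r = 0.90), followed by Gm16755 and Ubl3 (0.88 each). For Cebpb these were Vegfa (0.81), Esrra (0.79) and Pnrc1 (0.78), and for Cebpd Pdgfra and Ndrg1 (0.87 each) and Plod2 (0.86). For Cebpg they were Myeov2 (0.85), Pnpla8 (0.84) and Prkar2b (0.81), and for Cebpz Taf12 (0.85), Psmd6 (0.84) and Naca (0.77).

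Genes around the factors were grouped into 8 lists. Among bZIP relatives and partners, 2 of 6 tested genes were called higher and 0 lower at either time, against 10.9% (24 h) and 10.4% (72 h) of all entries called higher. At 24 h these were Atf3, an early stress factor (3.31 ± 1.25 against 0.952 ± 0.396 scaled RPKM, SD, log2 difference 1.69 ± 0.28, adjusted p = 0.0014), and Atf4, a dimer partner of C/EBPγ (92.5 ± 9.06 against 64.2 ± 6.75, 0.53 ± 0.11, adjusted p = 0.0039). At 72 h they were Atf3 (0.91 ± 0.30, adjusted p = 0.04) and Ddit3, which encodes CHOP, an inhibitory partner of C/EBP proteins (140 ± 14.1 against 87.7 ± 4.58, 0.66 ± 0.09, adjusted p = 1.9e-04). Nfil3 (0.38) and Dbp (−0.30) at 24 h and Dbp (−0.59) and Atf5 (−0.50) at 72 h did not pass.

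Of the factors known to induce C/EBP genes, 1 of 8 tested was called higher at either time, a share near that of all entries called higher (10.9% at 24 h and 10.4% at 72 h). It was Klf4, which acts upstream of Cebpb. Klf4 averaged 11.3 ± 6.66 in KD 24 h against 2.15 ± 0.429 in NC 24 h (2.08 ± 0.40, adjusted p = 0.0028) and 6.85 ± 1.72 against 2.15 ± 0.227 at 72 h (1.59 ± 0.20, adjusted p = 1.1e-04). Cebpb itself was not higher at either time, and a link between these genes was not tested. Egr2 (−0.48), Nr3c1, the glucocorticoid receptor (0.46), and Srebf1 (0.27) at 24 h, and Nr3c1 (−0.40), Egr2 (0.32) and Atf1 (−0.42) at 72 h, did not pass.

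Of 14 regulators of C/EBP proteins, 1 was called higher and 2 lower at 24 h, so that 3 of 14 were called, a share near the 22.7% of all entries. Cdk2, a kinase that phosphorylates C/EBPβ, rose (0.60 ± 0.17, adjusted p = 0.023). Rfwd2, the ubiquitin ligase COP1, and Trib2, the scaffold that brings it to C/EBPα, fell by 0.85 and 0.90 on the log2 scale (adjusted p = 0.016 and 0.035). At 72 h 0 were called higher, and Rfwd2 was lower (2.10 ± 0.551 against 4.82 ± 0.907 scaled RPKM, −1.20 ± 0.23, adjusted p = 0.0021), while on the deposited scale 3 were called higher. Ep300 (0.89 at 24 h and 0.62 at 72 h) and Gsk3b (−0.43 at 72 h) did not pass.

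The adipocyte genes known as targets of C/EBPα were lower where they passed: 3 of 13 tested at 24 h and 8 of 13 at 72 h, with 0 higher. Over all entries 22.7% were called at 24 h (11.8% lower) and 22.5% at 72 h (12.1% lower). At 24 h the share of the list called was thus near that of all entries called in either direction. The median log2 differences of the list were −0.44 and −0.58, against −0.01 and 0.01 over all entries. At 24 h Slc2a4, the insulin-responsive glucose transporter (6.49 ± 2.46 against 18.9 ± 5.84, −1.59 ± 0.32, adjusted p = 0.0036), Adipoq (−0.55 ± 0.15, adjusted p = 0.02) and Pparg (83.5 ± 20.7 against 111 ± 12.5, −0.44 ± 0.15, adjusted p = 0.045) were called, and Insr (−0.57) was not. The Pparg call was kept in 3 of 12 omissions of a library. At 72 h the 4 of smallest p were Slc2a4 (−1.77 ± 0.18, adjusted p = 2.2e-05), Adipoq (−0.96 ± 0.15, adjusted p = 6.5e-04), Retn, which encodes resistin (−1.01 ± 0.17, adjusted p = 7.5e-04), and Scd1, a desaturase (−1.01 ± 0.17, adjusted p = 9.8e-04), whereas Pparg differed by −0.18 ± 0.09 (adjusted p = 0.19). On the deposited scale 6 of 13 were called lower at 72 h, and in the smaller cluster also 6 of 13. The interaction called 1 of 13, Retn (−1.07 ± 0.23, adjusted p = 0.047).

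Of the thermogenic genes, 3 of 4 tested were called lower at 24 h and 4 of 4 at 72 h, against 11.8% and 12.1% of all entries. Ucp1, the uncoupling protein, averaged 59.6 ± 13.5 against 140 ± 53.9 at 24 h (−1.16 ± 0.24, adjusted p = 0.0046) and 150 ± 57.4 against 734 ± 139 at 72 h (−2.37 ± 0.21, adjusted p = 8.2e-06). Cidea fell at both times (−0.64 ± 0.21, adjusted p = 0.038, and −1.70 ± 0.21, adjusted p = 8.3e-05), with the 24 h call kept in 3 of 12 omissions of a library (without KD 24 h replicate 6 and NC 24 h replicates 5 and 6), and so did Prdm16, which encodes a binding partner of C/EBPβ in brown fat cells (−1.68 ± 0.31 and −1.36 ± 0.34). Ppargc1a was at −0.73 ± 0.26 (adjusted p = 0.055) and then at −1.27 ± 0.23 (adjusted p = 0.0015). Dio2 was under the filter.

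The acute-phase targets of C/EBPβ and C/EBPδ showed no common direction. At 24 h 2 of 6 tested were higher, Ptgs2, the inducible cyclooxygenase (2.30 ± 0.31, adjusted p = 3.6e-04), and Il6 (1.47 ± 0.38, adjusted p = 0.013), and 1 was lower, Hp, which encodes haptoglobin (−0.85 ± 0.16, adjusted p = 0.0025); C3 (−0.41) did not pass. At 72 h 1 of 8 was higher, Ptgs2 (1.61 ± 0.45, adjusted p = 0.019), and Hp (115 ± 94.1 against 689 ± 569, −2.18 ± 0.75, adjusted p = 0.052), C3 (−1.39) and Il6 (1.27) did not pass. In the larger cluster alone 4 of 8 were lower and 1 was higher at 72 h, where 24.9% of all entries were called in either direction.

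A list of genes of cell cycle exit and clonal expansion holds growth arrest genes and genes of cycling cells alike. Here 5 of 8 tested were called higher at 24 h and 3 of 8 at 72 h, with 0 lower, against 10.9% and 10.4% of all entries called higher. Of those called, Cdkn1a (0.44 ± 0.12 and 0.86 ± 0.12) encodes the cell cycle inhibitor p21, and Gadd45b (0.71 ± 0.22 and 0.88 ± 0.24) and, at 24 h, Gadd45a (0.84 ± 0.24) are stress-response genes, but Myc, which was also higher (0.67 ± 0.20 and 0.62 ± 0.11), drives growth, and Ccna2, which was higher at 24 h (0.46 ± 0.16, adjusted p = 0.049), encodes a cyclin of dividing cells. Gas1, a growth arrest gene (−0.46 at 24 h and −0.45 at 72 h), Ccnd1 (0.60 at 24 h) and Mki67 (0.73 at 24 h) did not pass. The 24 h count fell to 2 without KD 24 h replicate 2 or 5, without NC 24 h replicate 4 and without a filter, and to 3 without KD 24 h replicate 1, without NC 24 h replicate 2, 3 or 6 and with the replicate block, while in the smaller cluster it was 0. At 24 h 1 gene of the list was called lower without KD 24 h replicate 4 or 5, with the stricter filter, with 1 entry per gene and with voom on recovered reads. At 72 h 3 genes of the list were higher and 3 lower in the smaller cluster.

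The ribosome assembly partners of the Cebpz product were higher where they passed, 6 of 13 tested at 24 h and 7 of 13 at 72 h, with 0 lower. Over all entries 10.9% and 10.4% were called higher. Cebpz itself did not pass at either time. Nop56 averaged 17.1 ± 3.06 against 6.48 ± 1.11 at 24 h (1.38 ± 0.17, adjusted p = 1.5e-04) and differed by 0.96 ± 0.21 at 72 h. Npm1, the abundant nucleolar protein gene, differed by 0.78 ± 0.11 and 0.61 ± 0.11, Noc4l and Nop58 by 0.98 ± 0.17 and 0.73 ± 0.16 at 24 h, and Noc2l and Nolc1 by 1.17 ± 0.21 and 0.80 ± 0.17 at 72 h. The medians of the list were 0.48 and 0.49. In the smaller cluster 2 of 13 were higher at 24 h and 1 of 12 at 72 h. In that cluster, with 2 samples a group, 0 genes of the other 7 lists were called at 24 h, against 2.96% of all entries.

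**Figure D4:**
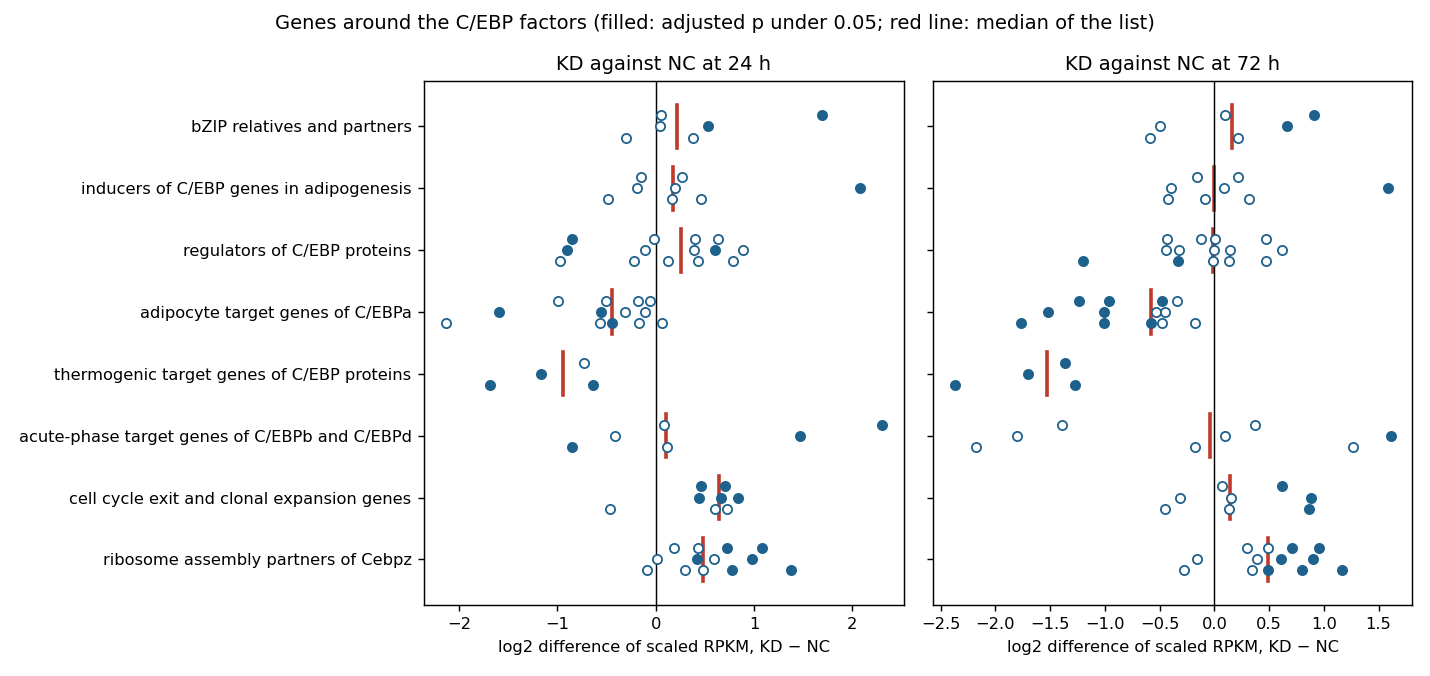
Each point is the log2 difference between KD and NC of one tested gene, for 8 lists at 24 h and 72 h; filled points have an adjusted p under 0.05 and red lines mark the median of the list. The thermogenic list has medians of −0.94 and −1.53, the adipocyte targets of −0.44 and −0.58, and the ribosome assembly partners of 0.48 and 0.49.

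Over time some genes of these lists rose in both arms. The interaction called 0 of 4 tested thermogenic genes and 0 of 6 bZIP relatives and partners, against 0.213% of all entries. In NC 2 of 4 thermogenic genes rose from 24 h to 72 h, Ucp1 by 2.49 ± 0.24 (adjusted p = 3.5e-05) and Cidea by 2.33 ± 0.23 (adjusted p = 4.9e-05), against 9.15% of all entries called. In KD Ucp1 and Cidea also rose, by 1.28 ± 0.22 and 1.26 ± 0.18, and Ppargc1a fell (−1.01 ± 0.30, adjusted p = 0.048). Ddit3 rose in both arms, by 0.53 ± 0.12 in NC (adjusted p = 0.014) and 1.13 ± 0.14 in KD (adjusted p = 1.9e-04), and Atf4 fell in KD (−0.33 ± 0.10, adjusted p = 0.049).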

How the data were processed

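Bulk RNA barcoding and sequencing, which reads 3′ ends of mRNA, was applied to 24 libraries of 4 groups. The values deposited by the authors are RPKM (reads per length of transcript and number of mapped reads) for 168326 transcript entries. The authors aligned the tags to RefSeq and tested with DESeq2 in the Genomatix suite; versions, build and handling of strand are not given in the sources used here. The members, gene lists and tests were chosen with earlier results of these data known.

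Because low RPKM values rise in steps of 1 read, library totals and transcript lengths were recovered from them (whole within 0.1 read for 95.2% to 95.7% of low values, and for 77.0% in NC 72 h replicate 6). Of 22667 recovered lengths that could be compared, 90.1% were those of GENCODE M21. Totals ran from 1391822 to 5423790 reads, and floors of 3 reads cover counting error only. NC 72 h replicates 2 and 3 differed by 0.368 times the sampling noise, the next closest of 276 pairs by 1.835 times, and were averaged. RPKM was scaled by a trimmed mean of log ratios to a common reference (30% of ratios and 5% of levels trimmed at each end) and fitted as log2(scaled RPKM + 0.1) with limma 3.58.1 in R 4.3.3, with moderated variances following the intensity, and Benjamini-Hochberg adjustment over all entries. Fold changes on this scale understate those of low genes. Entries needed 10 reads of the median library in as many samples as the smaller group, and 15 reads in all; for entries without a recovered length 1000 bases were assumed in this filter. KD and NC were fitted at each time with the samples of that time, each arm over time with its own samples, and the interaction with all 23 samples. Exact two-sided permutation tests (scipy 1.17.1) were used for 12 comparisons of Ctcflos entries.

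Clusters of libraries were found from the correlation of deviations from the group means over 4022 genes, with the members left out. Named were the 5 members, the 4 genes of smallest p per list and comparison (1 gene of the regulators at 72 h is not reported here), and the 3 genes most correlated with each member. Genes of the marker lists, opposite-strand genes and Pparg at 72 h were named in addition after their values were seen. Alternatives covered scaling, pseudocount, filter, 1 entry per gene, voom on recovered reads, a replicate block, the agreeing libraries kept apart, the clusters and each library left out; the same settings for lists were added after seeing the data. Steps were tested on simulated data.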

Additional observations from a re-analysis of the deposited data

Results flagged for a closer look

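Among 20 groups of samples examined (5 genes in 4 groups), 1 held a sample that lay far from the others. The Cebpg value of 16.7 scaled RPKM in KD 24 h replicate 6 stood above the other 5 samples of its group by 0.815 of the whole range of the group, where the critical value for 6 samples is 0.625. Chance alone marks about 1 in 20 such groups. This library was the shallowest, with 1391822 reads, and was also the highest of its group for Cebpa (11.9), Cebpb (162) and Cebpd (19.7) and the lowest for Cebpz (4.65). Without it the Cebpg difference at 24 h was −0.07 in place of 0.12 on the log2 scale, and neither was called.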

How the results depend on the processing

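The Cebpa difference at 24 h kept its sign in all settings (−0.64 to −0.49) and its call in all 12 omissions of a library (adjusted p = 0.0082 to 0.037). It lost the call with the replicate block and in the smaller cluster, so that the count of members was 0 there. At 72 h the count of members was 0 on the deposited scale, without a filter, with the replicate block and in the smaller cluster, and 0 to 3 with a library left out. With a pseudocount of 1 Cebpg was at an adjusted p of 0.051. In NC over time the larger cluster called 1 member. Signs turned, with the cause not tested, for Cebpg at 24 h (smaller cluster −0.14, libraries left out −0.07 to 0.18) and at 72 h for Cebpa (smaller cluster 0.01), Cebpd (smaller cluster 0.06) and Cebpz (deposited scale 0.19, replicate block 0.01, larger cluster 0.07, libraries left out −0.12 to 0.02). They also turned for Cebpb in NC over time (deposited scale −0.01, larger cluster −0.03, libraries left out −0.09 to 0.14) and Cebpz in KD over time (voom −0.06, smaller cluster −0.36, libraries left out −0.15 to 0.09). In the interaction they turned for Cebpa (larger cluster −0.29, libraries left out −0.08 to 0.10) and Cebpd (deposited scale 0.10, voom 0.01, smaller cluster 0.61, libraries left out −0.26 to 0.10). None of these turned values was called.

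Entries called with 1 entry per gene, where fewer are tested, were 2610 at 24 h, 2793 at 72 h, 1070 in NC over time, 1274 in KD over time and 47 in the interaction. In the smaller cluster, with fewer samples, they were 1566 at 24 h, 5834 at 72 h and 1804 in NC over time. In KD over time that cluster called 7292 entries, more than the 5235 of the fit reported. For the interaction, 126 in the fit reported, they were 774 on the deposited scale, 247 with a pseudocount of 1, 209 with the agreeing libraries apart, 866 in the larger and 1827 in the smaller cluster, and 53 (without KD 72 h replicate 1) to 174 (without KD 24 h replicate 6) with a library left out. Voom on recovered reads called 12600 entries at 24 h and 12769 at 72 h.

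Replicate numbers did not pair the samples: deviations of same-numbered samples correlated by −0.12 (24 h), 0.05 (72 h), 0.05 (NC over time) and 0.01 (KD over time) on average, and no comparison had all pairs above 0.1. The replicate block called 8736 entries at 24 h, 8245 at 72 h, 2919 in NC over time, 3871 in KD over time and 31 in the interaction, with 0 members in each. Under the block the adjusted p was 0.055 for Cebpa at 24 h and 0.065 for Cebpa, 0.069 for Cebpb and 0.14 for Cebpg at 72 h.

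Among the genes of the lists, calls kept in few omissions of a library were those of Pparg, Cidea and Trib2 at 24 h (3 of 12 each), Gadd45b and Myc at 24 h (6 of 12 each), and Atf3 at 72 h (3 of 11). The row of a member took as few as 29 reads (Cebpz) in the shallowest library, and its median over libraries ran from 111 reads (Cebpa) to 575 reads (Cebpb).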
